A study of Mus musculus with 27 samples.

Results

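The core circadian clock genes Arntl, Clock, Per1, Per2, Per3, Cry1, Cry2, Nr1d1, Nr1d2 and Dbp were examined in tibialis anterior muscle, the muscle at the front of the lower leg, of mice with volumetric muscle loss (VML). These 10 genes were picked by name from the 54532 genes of an RNA sequencing table. All 10 were found, and all 10 passed the filter on low values, an FPKM (fragments per kilobase of gene length, scaled to the sequencing depth) of at least 0.5 in at least 5 samples, which 14630 genes passed. They were picked with earlier results of these samples known, among them high levels of Per1 and Per2 on day 14, so their differences between groups are given as a description, without p-values, and counts of members past the threshold of the fit of all genes support nothing.

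VML is the loss of more muscle than the tissue can replace. In male C57BL/6 mice of 8 weeks, 40% of the tibialis anterior was excised, and muscles were collected 3, 7, 14 or 21 days later. There were 5, 6, 6 and 5 samples at these times and 5 samples from uninjured C57BL/6 mice, also listed at 8 weeks. Of the sources, one speaks of a unilateral defect and another, the study's methods, of both legs, so whether samples share an animal is not known, nothing says that replicates are separate animals, and p-values measure only the spread between these samples. The hour of day at which muscles were collected is not given in the sources used here, and hour and group cannot be told apart.

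Nearly every cell carries a molecular clock that runs with a period of about a day. The transcription factors encoded by Arntl and Clock bind E-box sequences and switch on the Per and Cry genes, whose proteins return to the nucleus and inhibit the pair. In a further loop, the nuclear receptors encoded by Nr1d1 and Nr1d2 repress Arntl through elements they share with ROR receptors, and output factors such as Dbp act on D-boxes to pass the rhythm on. In skeletal muscle the clock is known for its link to fuel use and to myogenic genes, and Per1 is also a known target of the glucocorticoid receptor.

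Motifs through which this circuit is read were found near the start of 4 of the 9 members that have a promoter window in RefSeq (GRCm38.p6), each window running from 250 bases before to 50 after the gene's start. Both strands were searched for 3 motifs whose letters do not overlap in any of these windows. These were the E-box CACGTG, which 7.15% of 32817 windows hold, the D-box TTATGNAA (3.39%) and the ROR element TAGGTCA (2.61%). The 9 members have 13 windows, of which 4 hold a motif. The shares are for each motif alone, and the share of windows with any of the 3 was not counted, so nothing is read from these counts. The windows of Per1, Cry1 and Per3 are shown from base -250 to base -11 on the gene's strand, with the motifs in capitals, because they hold the elements of the activating and the output arm, and for Arntl 30 bases around its ROR element are shown. A match is a description of the letters and not a site shown to be bound.
Per1 (chr11:69098699-69098938, plus strand): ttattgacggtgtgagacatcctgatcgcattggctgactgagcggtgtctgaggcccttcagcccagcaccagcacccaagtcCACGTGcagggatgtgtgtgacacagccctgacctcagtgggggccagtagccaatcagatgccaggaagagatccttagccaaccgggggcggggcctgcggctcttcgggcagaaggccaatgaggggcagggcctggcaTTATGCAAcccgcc
Cry1 (chr10:85185065-85185304, minus strand): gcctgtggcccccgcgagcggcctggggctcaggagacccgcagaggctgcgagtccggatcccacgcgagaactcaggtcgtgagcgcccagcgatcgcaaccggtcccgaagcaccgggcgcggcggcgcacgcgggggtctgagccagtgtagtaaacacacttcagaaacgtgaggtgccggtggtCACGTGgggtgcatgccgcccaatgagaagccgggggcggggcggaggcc
Per3 (chr4:151044676-151044915, minus strand): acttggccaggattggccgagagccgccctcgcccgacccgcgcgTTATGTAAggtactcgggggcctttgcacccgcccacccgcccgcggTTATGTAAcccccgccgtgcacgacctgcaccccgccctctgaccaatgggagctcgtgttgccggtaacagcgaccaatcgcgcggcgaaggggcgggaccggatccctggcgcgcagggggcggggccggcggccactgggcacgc
Arntl (chr7:113207530-113207559, plus strand): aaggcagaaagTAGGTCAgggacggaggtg

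Counted from the gene's start, the E-box begins at base -166 in Per1 and at base -60 in Cry1. Per1 has in addition a D-box at base -24, and Per3 has D-boxes at bases -205 and -158. The ROR element of Arntl lies at base 31 downstream of the start. The Cry1 and Per3 windows lie directly outside the genes as the files annotate them, whereas the Per1 window lies inside the annotated gene, whose first base is further upstream, and the Per3 window is also spanned by Camta1. In the windows of Clock, Cry2, Nr1d1, Nr1d2 and Dbp these letters were not found.

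Sequencing gave 14376395 to 24436763 reads per sample on genes (median 17398586), and in 2 libraries the markers of macrophages stood apart from the rest of their group. Day 3 replicate 5 had a Cd68 level of 31.7 FPKM against 94.4 to 251 in the other 4 day 3 samples. Day 7 replicate 5 had 226 FPKM against 3.19 to 47.1 in the other 5 day 7 samples. Cd68 is a macrophage gene. Each library's Cd68 lay within the range of the other samples of the other of these 2 groups. So did its sum of 6 macrophage markers. It was 311 FPKM in day 3 replicate 5 (44.7 to 408 in the other 5 day 7 samples). In day 7 replicate 5 it was 2004 FPKM (996 to 2136 in the other 4 day 3 samples). The sum of 8 muscle fibre markers did so too. Whether the 2 labels were exchanged was not tested, and the text keeps the labels as given. Leaving out both libraries moved the log2 difference of a member by at most 0.21, which was that of Dbp on day 3.

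The summed FPKM of 6 macrophage markers ranged from 16.9 to 24.7 in uninjured muscle, 311 to 2136 on day 3, 44.7 to 2004 on day 7, 43.7 to 101 on day 14 and 31.4 to 56.9 on day 21. The summed FPKM of 8 muscle fibre markers ranged from 83503 to 98974 in uninjured muscle, 21617 to 63695 on day 3, 26906 to 99602 on day 7, 42808 to 99414 on day 14 and 72917 to 105770 on day 21. On day 3 the fibre sum lay below every uninjured sample and the macrophage sum above, and at days 7, 14 and 21 the fibre sum overlapped the uninjured range. Medians of the sums in uninjured muscle and on day 3 were 22.8 and 288 FPKM for 3 satellite cell and myoblast markers, 68.9 and 353 for 4 fibroblast markers, 53.0 and 41.2 for 3 endothelial markers, 1.14 and 1.08 for 3 adipocyte markers, and 3.10 and 23.3 for 3 neutrophil markers. Of the last, Ly6g was listed at 0 in 26 of 27 samples and at 0.0509 FPKM in day 3 replicate 1. In whole muscle, fewer cells of a type and less RNA per cell cannot be told apart, and the part that cell composition has in the differences below was not tested.

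In uninjured muscle Nr1d1 was the most abundant member with 58.4 FPKM ± 3.61 (SD, n = 5), followed by Dbp with 25.1 ± 2.63 and Nr1d2 with 16.1 ± 2.60. The other 7 members lay between 0.412 FPKM (Per2) and 4.32 FPKM (Per1). From day 3 the order at the top was reversed, with Dbp above Nr1d1 in the group means at days 3, 7, 14 and 21, although on day 3 these means were 22.1 and 22.1 FPKM. At the bottom, Arntl took the place of Per2 as the least abundant member at each time after injury.

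**Figure D1:**
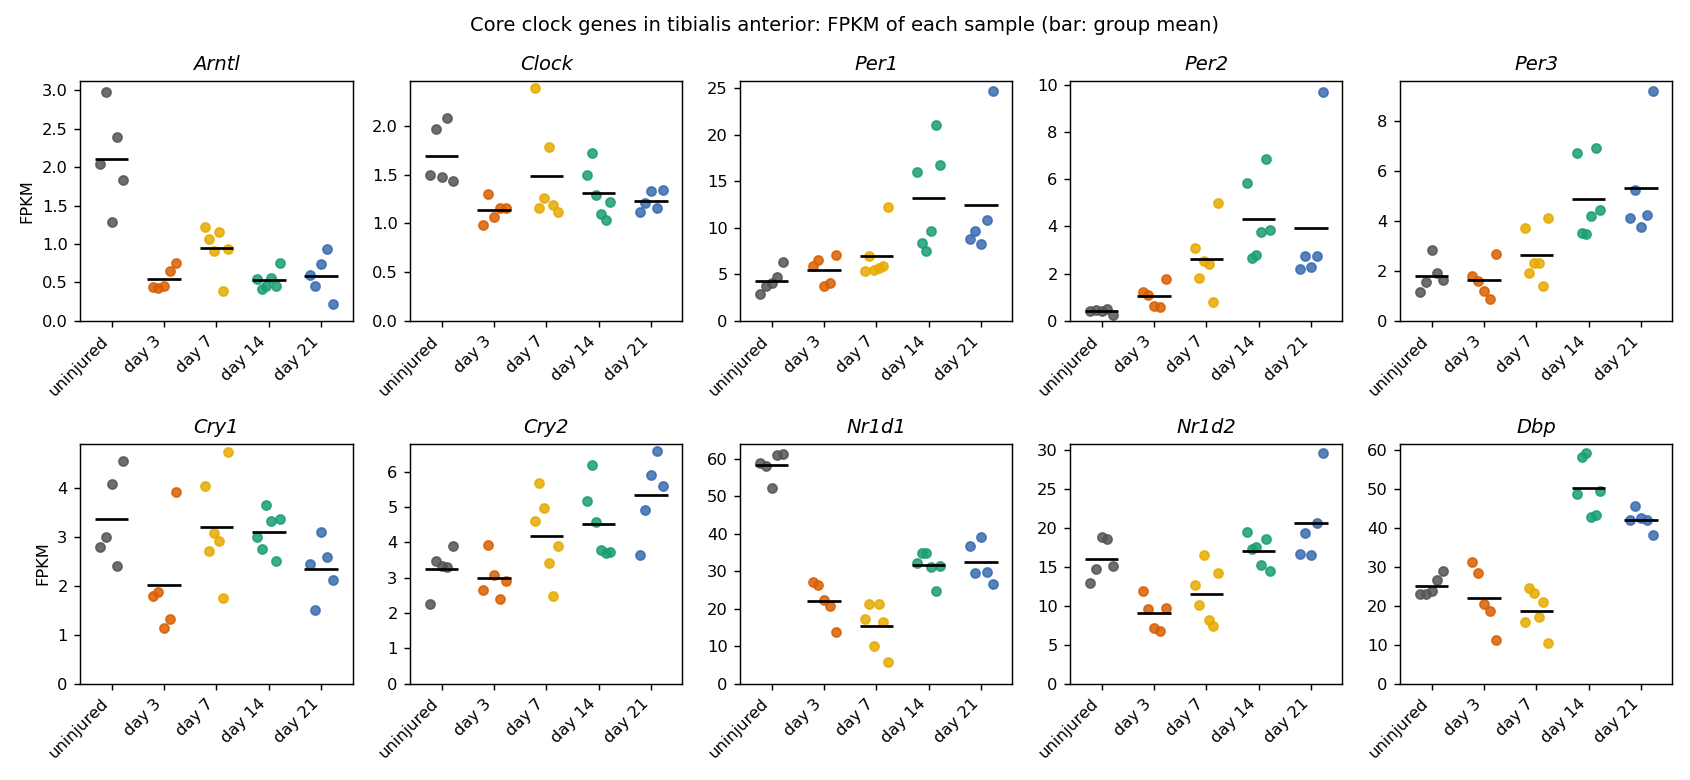
FPKM (vertical axes, linear and starting at 0) of the 10 core clock genes in each of the 27 samples by group (horizontal axes), with a point for each sample and a bar at the group mean. Arntl and Nr1d1 lie below the uninjured samples in each group after injury, Per1, Per2, Per3 and Dbp lie above them at days 14 and 21, and single samples on day 7 and day 21 stand high for the Per genes.

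Arntl (chr7:113207465-113314126, plus strand, GRCm38), the activator whose protein is also called BMAL1, was lower than in uninjured muscle at every time. Its FPKM in the uninjured samples was 2.04, 2.98, 1.28, 2.40 and 1.83, and on day 3 it was 0.440, 0.431, 0.458, 0.648 and 0.750. On day 7 it ran from 0.389 to 1.22 with a median of 0.997, and on day 14 from 0.409 to 0.756 with a median of 0.501. On day 21 it was 0.599, 0.459, 0.737, 0.938 and 0.214. None of the 22 injured samples reached the lowest uninjured sample. Group means were 3.86-fold lower on day 3, 2.23-fold on day 7, 3.98-fold on day 14 and 3.57-fold on day 21. On the log2(FPKM + 1) scale the differences were -0.99 ± 0.14 (SE from limma), -0.67 ± 0.14, -1.001 ± 0.14 and -0.96 ± 0.14. Days 3, 14 and 21 overlapped each other, and Arntl rested on few reads, from 18 to 386 per sample.

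Clock (chr5:76209868-76304792, minus strand), the partner of Arntl, differed less. Its FPKM was 1.43 to 2.08 in uninjured muscle, 0.984 to 1.30 on day 3, 1.12 to 2.39 on day 7, 1.03 to 1.72 on day 14 and 1.11 to 1.34 on day 21. Only the samples of days 3 and 21 all lay below the uninjured range. The differences in log2(FPKM + 1) were -0.33 ± 0.12 on day 3 and -0.26 ± 0.12 on day 21. The day 3 value depends on the scaling, with 0.19 for FPKM rescaled to a common sum and 0.06 when divided by the sample's own sum of gene reads.

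Of the Per genes, which encode the inhibitors of the pair, Per2 (chr1:91415982-91459324, minus strand) had the largest ratio to uninjured muscle. In the uninjured samples its FPKM was 0.436, 0.476, 0.407, 0.485 and 0.257, from 22 to 48 reads per sample. On day 3 it was 1.20, 1.08, 0.641, 0.592 and 1.77, and on day 7 it ran from 0.784 to 4.99 with a median of 2.46. On day 14 it ran from 2.67 to 6.87 with a median of 3.81. On day 21 the values were 2.21, 2.73, 2.26, 2.74 and 9.68. All 22 injured samples lay above the uninjured range, and on day 21 a single sample stood far above the other 4. Group means were 2.56-fold higher on day 3, 6.32-fold on day 7, 10.4-fold on day 14 and 9.52-fold on day 21. The differences in log2(FPKM + 1) were 0.51 ± 0.29, 1.26 ± 0.28, 1.85 ± 0.28 and 1.63 ± 0.29. This scale understates the change of a gene below 1 FPKM.

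Per1 (chr11:69095217-69109960, plus strand) was high from day 14. Its FPKM was 2.83, 3.69, 4.01, 4.69 and 6.37 in uninjured muscle and 5.85, 6.57, 3.74, 4.05 and 7.05 on day 3. On day 7 it ran from 5.39 to 12.2 with a median of 5.79, and on day 14 from 7.47 to 21.0 with a median of 12.8. Days 3 and 7 overlapped uninjured muscle, whereas all 6 day 14 samples lay above it. On day 21 the values were 8.78, 9.68, 8.27, 10.8 and 24.7, again all above it. Group means were 3.06-fold higher on day 14 and 2.88-fold on day 21, with log2 differences of 1.36 ± 0.27 and 1.26 ± 0.28.

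Per3 (chr4:151003652-151044665, minus strand) likewise was high at the later times. Its FPKM was 1.16, 1.55, 2.82, 1.90 and 1.62 in uninjured muscle, 0.891 to 2.69 on day 3 and 1.38 to 4.11 on day 7, overlapping at both times. On day 14 it ran from 3.49 to 6.94 with a median of 4.33, and on day 21 it was 4.14, 5.23, 3.76, 4.23 and 9.19. Both later groups lay wholly above uninjured muscle. Group means were 2.70-fold and 2.93-fold higher, with log2 differences of 1.05 ± 0.22 and 1.13 ± 0.23.

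The Cry genes, Cry1 (chr10:85131700-85185064, minus strand) and Cry2 (chr2:92403646-92434043, minus strand), whose proteins inhibit the activators together with those of Per, overlapped uninjured muscle at all times. Cry1 was 2.41 to 4.56 FPKM in uninjured muscle and 1.15 to 3.93 on day 3, where 4 of 5 samples lay below the uninjured range and replicate 5, which stood apart in its markers, had the highest value. The Cry1 difference on day 3 was -0.58 ± 0.20 and was -0.77 without the 2 libraries that stood apart. Cry2 was 2.26 to 3.89 FPKM in uninjured muscle and 3.66 to 6.58 on day 21, where 4 of 5 samples lay above that range and the difference was 0.57 ± 0.17. Cry2 shares 295 exon bases (4.67%) with D930015M05Rik on the opposite strand, and Arntl shares 33 (0.439%) with Gm45355.

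**Figure D2:**
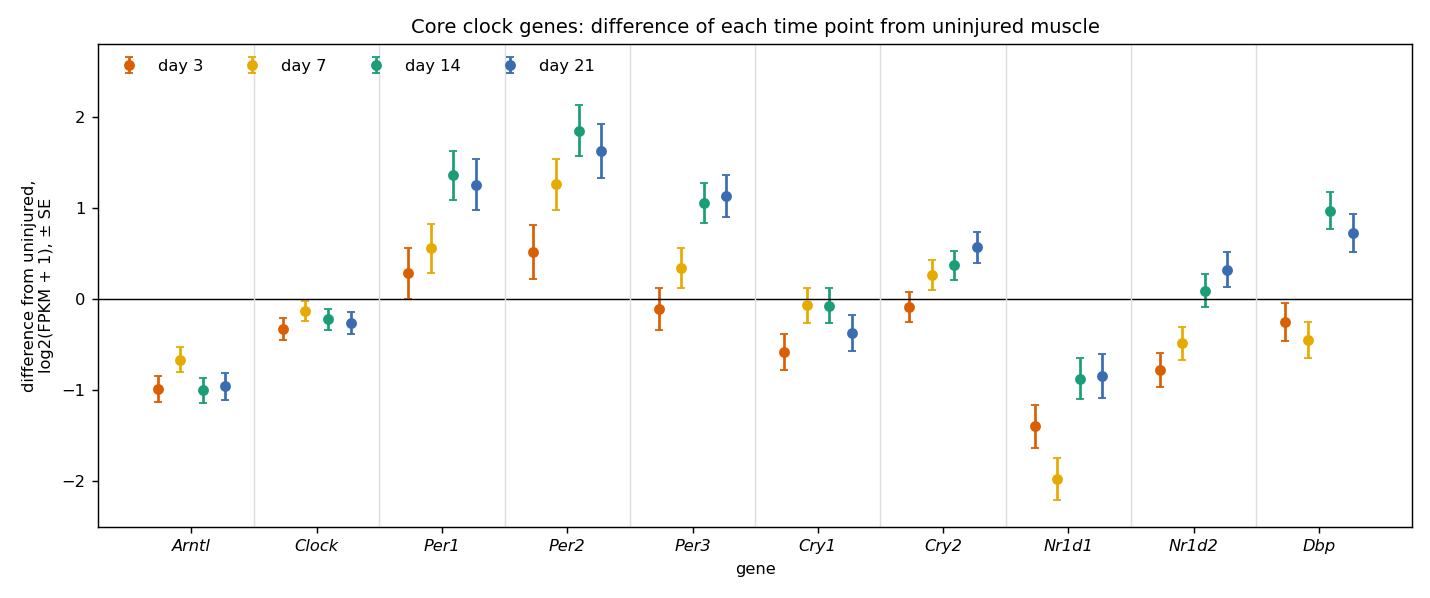
Difference from uninjured muscle (vertical axis, log2(FPKM + 1), mean and SE of the limma fit) of each core clock gene (horizontal axis) at days 3, 7, 14 and 21. Arntl and Nr1d1 lie below 0 at all 4 times, Per2 lies above 0 at all 4 times with 1.85 on day 14, and Dbp passes from -0.45 on day 7 to 0.97 on day 14.

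Nr1d1 (chr11:98767932-98775333, minus strand), which encodes the repressor REV-ERB alpha, was lower at every time. In the uninjured samples its FPKM was 58.9, 58.2, 52.4, 61.0 and 61.3, and on day 3 it was 27.2, 26.3, 22.3, 20.8 and 13.7. On day 7 it ran from 5.69 to 21.4 with a median of 16.9, and on day 14 from 24.6 to 34.9 with a median of 31.8. On day 21 it was 36.7, 29.5, 39.1, 29.9 and 26.6. No injured sample reached the uninjured range, which was narrow, and the lowest group was day 7. Group means were 2.64-fold lower on day 3, 3.81-fold on day 7, 1.85-fold on day 14 and 1.80-fold on day 21. The log2 differences were -1.40 ± 0.24, -1.98 ± 0.23, -0.87 ± 0.23 and -0.84 ± 0.24.

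Nr1d1 shares 263 of its 3077 exon bases (8.55%) with Thra on the opposite strand, and the libraries did not keep the strand. Thra, a thyroid hormone receptor gene, had 15.7 FPKM ± 2.44 (SD, n = 5) in uninjured muscle and 9.30 ± 1.98 (n = 5) on day 3. It fell by 0.70 ± 0.11 on the log2 scale on day 3 (adjusted p = 3.12e-05, limma), by 0.55 ± 0.11 on day 7 (adjusted p = 0.000858) and by 0.49 ± 0.11 on day 14 (adjusted p = 0.00317). The part of reads from Thra in the level of Nr1d1 was not tested.

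Nr1d2 (chr14:18204054-18239127, minus strand), its close relative, was lower only early. Its FPKM was 12.95 to 18.9 in uninjured muscle, 6.78 to 11.97 on day 3, 7.43 to 16.5 on day 7, 14.5 to 19.5 on day 14 and 16.5 to 29.7 on day 21. Day 3 lay wholly below uninjured muscle and the other times overlapped it. The log2 differences were -0.78 ± 0.19 on day 3, -0.48 ± 0.18 on day 7, 0.09 ± 0.18 on day 14 and 0.32 ± 0.19 on day 21. The day 7 value turned to 0.20 for FPKM rescaled to a common sum and to 0.03 with each sample's own total of reads.

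Dbp (chr7:45705088-45710203, plus strand), the output factor, went from overlapping to high between days 7 and 14. In uninjured muscle its FPKM was 23.004, 23.04, 23.7, 26.7 and 28.9, and on day 3 it was 31.3, 28.6, 20.6, 18.8 and 11.3. On day 7 it ran from 10.4 to 24.6 with a median of 19.1, and on day 14 from 42.8 to 59.3 with a median of 49.2. On day 21 it was 42.2, 45.7, 42.5, 42.1 and 38.2. The groups at days 14 and 21 lay wholly above the others, 2.01-fold and 1.68-fold higher than uninjured muscle in their means, with log2 differences of 0.97 ± 0.20 and 0.73 ± 0.21. On day 3 the lowest sample was replicate 5, and the difference was -0.25 with it and -0.04 without the 2 libraries that stood apart. Dbp shares 539 of 2993 exon bases (18%) with Sphk2 on the opposite strand, which had 4.61 FPKM ± 0.383 (SD, n = 5) in uninjured muscle, 5.46 ± 1.02 (n = 5) on day 3, 4.66 ± 1.11 (n = 6) on day 7, 3.33 ± 0.969 (n = 6) on day 14 and 4.23 ± 0.942 (n = 5) on day 21. The part of reads from Sphk2 in the level of Dbp was not tested.

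A ratio of 2 genes within a library does not contain the library's scaling, and the 2 ratios given here were chosen after the values were seen. Per2 over Arntl was 0.140 to 0.318 in uninjured muscle (median 0.203), 0.914 to 2.74 on day 3, 1.72 to 5.37 on day 7 and 5.10 to 15.02 on day 14. On day 21 it was 2.92 to 5.95 in 4 samples and 45.2 in replicate 5, where Arntl rested on 18 reads. Dbp over Nr1d1 was 0.391 to 0.472 in uninjured muscle (median 0.437), 0.824 to 1.15 on day 3, 0.801 to 2.34 on day 7, 1.37 to 1.76 on day 14 and 1.09 to 1.55 on day 21. Both ratios of FPKM separated the uninjured samples from all 22 injured samples.

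Counted against all tested genes, 5 members passed an adjusted p of 0.05 on day 3, where 43.2% of all genes did, and 5 did not overlap the uninjured range, where 36.3% of all genes did not. On day 7 these counts were 4 (29.4% of all genes) and 3 (12.6%), on day 14 they were 6 (20.3%) and 6 (15.7%), and on day 21 they were 6 (3.43%) and 7 (10.4%). On the higher side these were 0, 1, 4 and 4 members on days 3, 7, 14 and 21, against 23.4%, 2189 of 14630, 9.02% and 1.74% of all genes. On the lower side they were 5, 3, 2 and 2 members, against 19.8%, 14.4%, 11.3% and 1.69% of all genes. Nothing is read from these counts, since the members were picked with the contrasts known, and the 4 comparisons share their uninjured samples. With FPKM rescaled to a common sum, 2 members were past the threshold on the higher and 1 on the lower side on day 3, 4 and 1 on day 7, 5 and 1 on day 14, and 3 and 0 on day 21. Of all genes, 47.5% were past it on the higher and 2.21% on the lower side on day 3, 43.6% and 1.44% on day 7, 14.3% and 0.8% on day 14, and 0.437% and 0.0547% on day 21 under this scaling. Without day 3 replicate 3 the count on day 3 was 3. Without the 2 libraries that stood apart, 5, 4, 6 and 7 members were past the threshold on days 3, 7, 14 and 21, and on day 7 Dbp was among them in place of Nr1d2. The median log2 difference of the members was -0.29, -0.10, 0.23 and 0.45 at days 3, 7, 14 and 21, against 0.01, 0.03, 0.02 and 0.01 over all tested genes.

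From day 3 to day 14 the difference was positive for Per1 (1.08 ± 0.27), Per2 (1.34 ± 0.28), Per3 (1.16 ± 0.22), Cry2 (0.46 ± 0.16), Nr1d2 (0.87 ± 0.18) and Dbp (1.22 ± 0.20, and 1.01 without the 2 libraries that stood apart). These 6 members were past the threshold, and without those libraries Cry1 was too (0.51 with them and 0.70 without), from which nothing is read here either. Of all genes 18.7% passed it, 5.03% on the higher side. The ranges of 5 of these members, all but Cry2, did not overlap between the groups, and those of 10.5% of all genes did not. Arntl overlapped between both times, with a difference of -0.01 ± 0.14. Between days 14 and 21, 0 members and 0 of all tested genes (0.0%) were past the threshold in limma. At an unadjusted p under 0.05 there were 909 genes in this comparison, and with voom weights there were 0 genes past the threshold and 870 at an unadjusted p under 0.05. Member differences ran from -0.30 ± 0.19 for Cry1 to 0.23 ± 0.18 for Nr1d2, and 0 members had separate ranges, against 0.704% of all genes.

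Genes around the core clock were examined in 4 lists with 40 genes that are no members, of which 37 passed the filter on low values. They were tested with limma in the fit of all genes. These lists too were chosen with earlier results of these data known. Their p-values and counts are thus a description, from which nothing is read about the lists. Of these 37, 4 rose and 21 fell on day 3, 3 rose and 13 fell on day 7, 4 rose and 8 fell on day 14, and 3 rose and 4 fell on day 21. Of all tested genes, 23.4% rose and 19.8% fell on day 3, 2189 of 14630 rose and 14.4% fell on day 7, 9.02% rose and 11.3% fell on day 14, and 1.74% rose and 1.69% fell on day 21, which is the background for the counts of each list below too. The read number by which the authors divided was on average 0.782, 1.25, 1.18, 1.04 and 0.897 times a sample's own sum of gene reads in uninjured muscle and at days 3, 7, 14 and 21. The split of calls depends on this scaling. For FPKM rescaled to a common sum, the median log2 difference of all genes was 0.62, 0.58, 0.36 and 0.15 at days 3, 7, 14 and 21, against 0.01, 0.03, 0.02 and 0.01 as deposited. With the rescaled values, 9 rose and 2 fell on day 3, 12 and 1 on day 7, 7 and 1 on day 14, and 0 and 0 on day 21, against the shares of all genes given above for this scaling, so that most falls named below for days 3 and 7 did not pass under that scaling. Relative to that median, 0 of the 60 differences past the threshold changed sign, against 15 without this correction. The scaling multiplies all genes of a sample by the same factor, and taking off the median largely undoes this. The count of 0 is thus no check of the differences.

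Among the clock partners, 9 of 11 genes passed the filter, of which 0 rose and 6 fell on day 3, 0 and 3 on day 7, 2 and 2 on day 14, and 1 and 0 on day 21. At an unadjusted p under 0.05 in limma 0 rose at days 3 and 7 and 2 fell on day 21, and voom called 0 in these cases. Rora, a nuclear receptor that binds the same elements as Nr1d1, fell by 0.62 ± 0.17 on day 3 (adjusted p = 0.00518).

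Ciart, a transcriptional repressor of the clock, was high late. Its FPKM was 1.93, 1.05, 2.11, 2.51 and 1.87 in uninjured muscle, from 1.37 to 3.24 on day 3, from 0.528 to 1.95 on day 7 and from 2.94 to 5.40 on day 14. All 6 day 14 samples lay above the uninjured range, and Ciart rose by 0.92 ± 0.18 (adjusted p = 0.00142). On day 21 it was 3.12, 3.06, 3.24, 3.59 and 5.59, all above that range too, with a rise of 0.70 ± 0.19 (adjusted p = 0.0355) that was lost on leaving out 8 of the 27 libraries in turn.

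Tef, a factor of the same family as Dbp, fell by 0.55 ± 0.17 on day 3 (adjusted p = 0.0125) and rose by 0.47 ± 0.17 on day 14 (adjusted p = 0.0438). The fall was lost for 1 library left out and turned to a difference of 0.25 for FPKM rescaled to a common sum, and the rise was lost for 13 libraries left out. Hlf, the remaining factor of this family, fell by 0.57 ± 0.21 on day 3 (adjusted p = 0.0295), a call lost for 5 libraries left out in turn. Nfil3, which binds D-boxes as a repressor, fell by 0.62 ± 0.19 on day 14 (adjusted p = 0.0242), a call also lost for 5 libraries left out. Bhlhe41, a repressor acting on E-boxes, fell by 1.05 ± 0.23 on day 3 (adjusted p = 0.000634) and by 0.92 ± 0.22 on day 7 (adjusted p = 0.00304). Its relative Bhlhe40 fell by 0.67 ± 0.22 on day 3 (adjusted p = 0.0144) and by 0.68 ± 0.21 on day 7 (adjusted p = 0.0166), but its sign turned for FPKM rescaled to a common sum, with differences of 0.11 and 0.01.

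Of the modifiers of clock proteins, 12 of 13 passed the filter, and 7, 4, 2 and 0 of them fell at days 3, 7, 14 and 21, while 0 rose in limma at each time. At an unadjusted p under 0.05, 0, 0, 1 and 1 were higher, and 2 were lower on day 21, and voom called 0 in these cases. Prkaa2, which encodes a catalytic subunit of AMP-activated kinase, fell by 1.26 ± 0.27 on day 3 (adjusted p = 0.000488) and by 1.01 ± 0.25 on day 14 (adjusted p = 0.00764). Hdac3, a histone deacetylase that works with Nr1d1 protein, fell by 0.49 ± 0.12 on day 3 (adjusted p = 0.0016), though for FPKM rescaled to a common sum the difference was 0.29. On day 3, Usp2 fell by 0.64 ± 0.23 (adjusted p = 0.0248), Cipc fell by 0.57 ± 0.12 (adjusted p = 0.000636), Ncor1 fell by 0.53 ± 0.13 (adjusted p = 0.00186) and Gsk3b fell by 0.50 ± 0.11 (adjusted p = 0.00101). Under that scaling these were differences of 0.15 for Usp2, 0.17 for Cipc, 0.15 for Ncor1 and 0.20 for Gsk3b. The call of Usp2 was lost for 3 libraries left out in turn. The casein kinase genes Csnk1d and Csnk1e, whose products mark Per proteins for decay, had differences between -0.21 ± 0.14 and 0.09 ± 0.12 and did not pass the test at any time.

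Of the 9 clock-controlled genes, 3 rose and 6 fell on day 3, 3 and 5 on day 7, 2 and 2 on day 14, and 2 and 2 on day 21. Ucp3, a mitochondrial carrier of muscle, had 36.6 FPKM in uninjured muscle and fell by 1.69 ± 0.17 on day 3 (adjusted p = 1.2e-07), by 1.51 ± 0.16 on day 7 (adjusted p = 1.98e-06), by 0.52 ± 0.16 on day 14 (adjusted p = 0.0244) and by 0.75 ± 0.17 on day 21 (adjusted p = 0.0151). The day 14 call of Ucp3 was lost for 3 libraries left out in turn. Pdk4, which holds back the use of glucose for oxidation, fell by 1.62 ± 0.27 on day 3 (adjusted p = 5.52e-05). At that time Slc2a4, the insulin-responsive glucose transporter, fell by 1.56 ± 0.34 (adjusted p = 0.000655), Tcap, a protein of the sarcomere, fell by 1.30 ± 0.38 (adjusted p = 0.00796), and Alas1, the first enzyme of haem synthesis, fell by 1.10 ± 0.23 (adjusted p = 0.000511). Muscle fibres express Ucp3, Slc2a4 and Tcap, and on day 3 these falls went with the low fibre sum, whose part in them was not tested. Wee1, a kinase that holds back mitosis, rose by 0.94 ± 0.16 on day 3 (adjusted p = 5.62e-05) and by 0.91 ± 0.15 on day 14 (adjusted p = 0.00044). Myod1, the myogenic factor, rose by 1.85 ± 0.34 on day 3 (adjusted p = 0.000115) and by 1.99 ± 0.32 on day 14 (adjusted p = 0.000329), and it is also a marker of myoblasts.

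**Figure D3:**
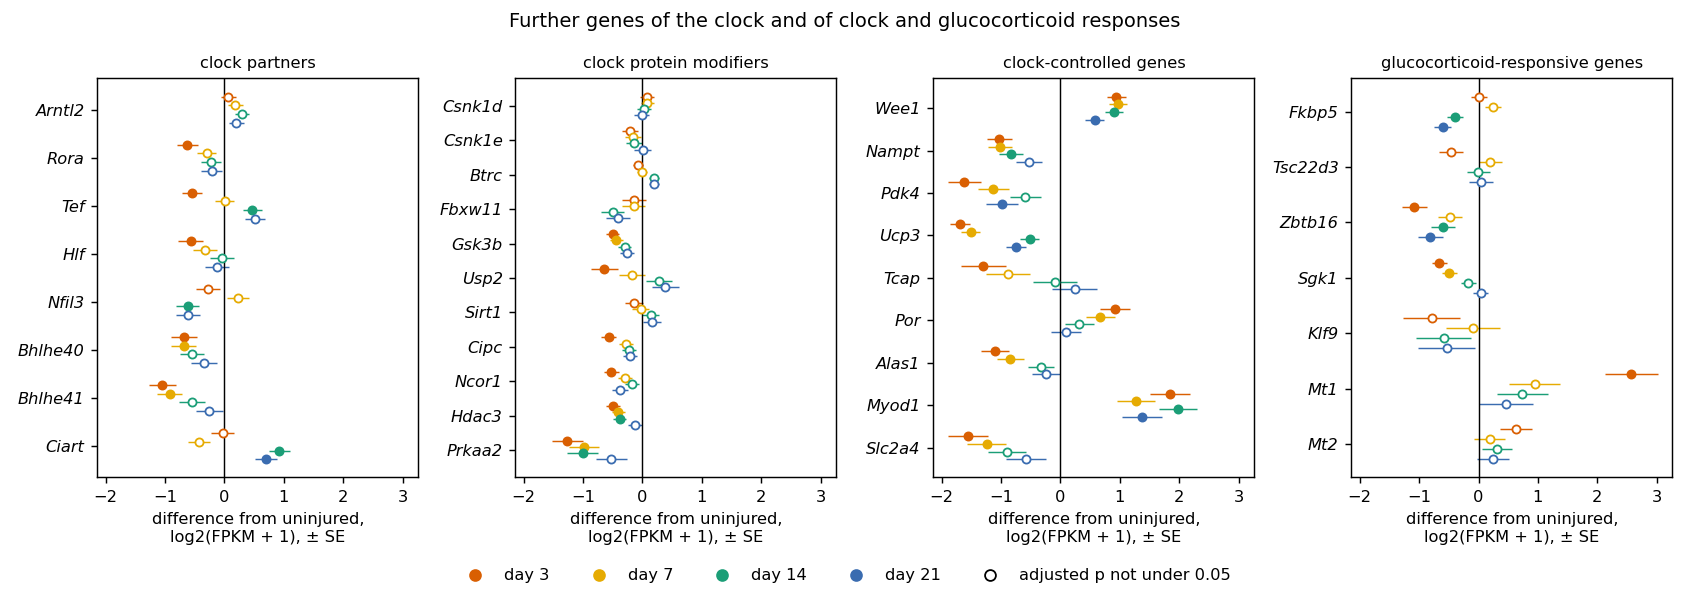
Difference from uninjured muscle (horizontal axes, log2(FPKM + 1), mean and SE of the limma fit) of 35 of the 37 further genes in 4 lists (vertical axes) at days 3, 7, 14 and 21, with filled points for an adjusted p under 0.05. Filled points left of 0 are most frequent on day 3 (19 of the genes drawn), and Ciart, Wee1 and Myod1 have the filled points right of 0 on day 21.

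Of the 7 glucocorticoid-responsive genes, which were included because Per1 is such a gene, 1 rose and 2 fell on day 3, 0 and 1 on day 7, and 0 and 2 at days 14 and 21. At an unadjusted p under 0.05, 1 was higher on day 7 and 0 at days 14 and 21, and voom called 0 of them. Mt1, a metallothionein, rose by 2.57 ± 0.45 on day 3 (adjusted p = 7.37e-05), and Sgk1, a kinase, fell by 0.66 ± 0.13 (adjusted p = 0.000306), with a difference of 0.14 for FPKM rescaled to a common sum. Fkbp5, a co-chaperone of the glucocorticoid receptor, had 2.51, 2.33, 2.70, 2.15 and 2.67 FPKM in uninjured muscle and 1.46, 1.16, 1.40, 1.30 and 1.11 on day 21. The ranges did not overlap, and Fkbp5 fell by 0.60 ± 0.14 (adjusted p = 0.0178), a call lost without day 21 replicate 2. On day 14 it fell by 0.39 ± 0.13 (adjusted p = 0.0384), a call lost for 8 libraries left out in turn. Zbtb16 fell by 1.08 ± 0.21 on day 3 (adjusted p = 0.000232), by 0.61 ± 0.20 on day 14 (adjusted p = 0.0351) and by 0.82 ± 0.21 on day 21 (adjusted p = 0.0307). Its calls on days 14 and 21 were lost for 7 and 8 libraries left out in turn. The other 5 genes of the list did not pass the test at days 14 and 21, with differences from -0.59 ± 0.46 (Klf9) to 0.74 ± 0.43 (Mt1) on day 14 and from -0.53 ± 0.48 (Klf9) to 0.46 ± 0.45 (Mt1) on day 21.

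The count of calls on day 21 rested on single libraries. It was 7 of the 37 genes with all 27 libraries and ran from 1 to 8 with 1 left out. It was 1 without day 21 replicate 2, 2 without day 21 replicate 1, 3 without uninjured replicate 1, 2 or 5, and 4 without uninjured replicate 3 or 4 or day 21 replicate 4 or 5. On day 14 the count of 12 was 7 without uninjured replicate 5 and 6 without day 14 replicate 5.

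Samples of a group differ in ways that the choice of the members did not use, so the deviations from the group means were compared across all 27 samples. The spread of members within groups had a median percentile of 59.3 among all tested genes. Per2 had a within-group SD of 0.49 on the log2 scale (percentile 85.4) and Per1 of 0.47 (percentile 83.2), while Clock had the smallest, 0.17 (percentile 8.17).

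The Per genes deviated together. Over the 45 pairs of members, the highest value was between Per2 and Per3, with a Pearson r of 0.89 and a Spearman rho of 0.85. Each had a p of 1e-05, the smallest that 100000 permutations of samples within groups can give, and an adjusted p of 0.00045 over the 45 pairs for Pearson's r. Without the 2 samples farthest from the median of Per2, r was 0.86. For Per1 and Per2, r was 0.77 (permutation p = 0.0002, adjusted p = 0.0036) and rho 0.68 (permutation p = 0.00059). For Per1 and Per3, r was 0.74 (permutation p = 0.00032, adjusted p = 0.0036) and rho 0.76 (permutation p = 7e-05). Without the 2 farthest samples these were 0.56 and 0.58. Across the alternative scalings and pseudocounts, and without the 2 libraries that stood apart, r stayed between 0.86 and 0.90 for Per2 and Per3, between 0.66 and 0.82 for Per1 and Per2, and between 0.69 and 0.79 for Per1 and Per3.

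Nr1d2 deviated with the Per genes, with an r of 0.72 to Per3 (permutation p = 0.00027, adjusted p = 0.0036) and a rho of 0.76 (permutation p = 6e-05), and an r of 0.70 to Per2 (permutation p = 0.00072, adjusted p = 0.00648) and a rho of 0.69 (permutation p = 0.00025). Without the 2 farthest samples these r were 0.62 and 0.48. To Per1 the r of Nr1d2 was 0.49 (permutation p = 0.0121, adjusted p = 0.0495), and 0.25 without the 2 farthest samples. The pair of Per1 and Nr1d2 no longer passed for 21 of the 27 libraries left out in turn.

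Nr1d1 went the other way. Its r was -0.55 to Per2 (permutation p = 0.00895, adjusted p = 0.0448), with a rho of -0.40 (permutation p = 0.0573), and -0.63 without the 2 farthest samples. For FPKM rescaled to a common sum this r was -0.11, so that it depends on the scaling. The pairs of Nr1d1 with Per2, Per1 and Per3 no longer passed for 10, 9 and 19 of the 27 libraries left out in turn. Nr1d1 and Dbp had an r of 0.67 (permutation p = 0.00733, adjusted p = 0.0432) and a rho of 0.54 (permutation p = 0.0149), but the r was 0.22 without the 2 farthest samples, on which it rests. The pair of Nr1d1 and Dbp no longer passed for 11 of the 27 libraries left out in turn. In all, 11 of 45 pairs passed an adjusted p of 0.05 for Pearson's r, 7 of them positive. This count was 20 for FPKM rescaled to a common sum, all positive, 5 with a pseudocount of 0.1, and 6 without the 2 libraries that stood apart. Single libraries moved it too, to 4 without day 21 replicate 5, to 5 without day 3 replicate 5, day 7 replicate 6 or day 14 replicate 2, 3 or 5, to 6 without day 7 replicate 2, and to 7 without day 3 replicate 3, day 7 replicate 4 or day 21 replicate 1 or 3. The positive pairs among Per1, Per2 and Per3 and the pair of Per3 and Nr1d2 passed in each of these cases.

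**Figure D4:**
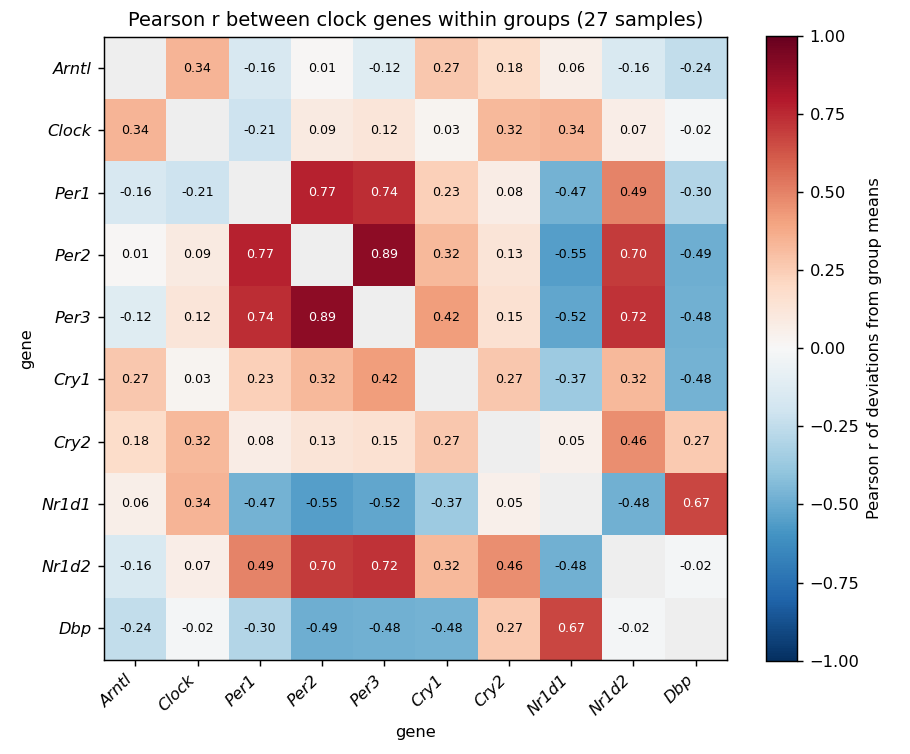
Pearson r (colour scale from -1 to 1, and printed values) between the deviations of each pair of core clock genes from their group means over 27 samples, with genes on both axes. The 3 Per genes and Nr1d2 form a block of positive values from 0.49 to 0.89, Nr1d1 is negative to all 3 Per genes, and the row of Arntl runs from -0.24 to 0.34.

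For Arntl no relation passed the test. Its r to the other 9 members ran from -0.24 (Dbp) to 0.34 (Clock), and 0 of 9 passed, with a lowest adjusted p of 0.621 for Pearson's r and 0.553 for Spearman's rho in the permutation test. At an unadjusted p under 0.05 there were 0. Of all other tested genes, 6.89% had an r to Arntl as high as that of Clock. Without the 2 samples farthest from the median of Arntl, r ran from -0.41 (Nr1d2) to 0.23 (Clock). That of Per2 went from 0.01 to -0.32. With FPKM rescaled to a common sum, 4 of 9 passed, and 1 with each sample's own total of reads.

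Single samples stood at the extremes of their group for several members. Day 21 replicate 5 had the highest Clock, Per1, Per2, Per3 and Nr1d2 and the lowest Arntl, Nr1d1 and Dbp of its group. Day 7 replicate 6 had the highest Per1, Per2, Per3 and Cry1 and the lowest Clock, Nr1d1 and Dbp of its group. Day 3 replicate 5 had the highest Arntl, Per1, Per2, Per3 and Cry1 and the lowest Nr1d1 and Dbp. Day 14 replicate 5 had the highest Per1, Per2 and Per3 and the lowest Clock, Cry1, Cry2 and Nr1d1. Day 7 replicate 5, which stood apart in its macrophage markers, had the lowest Arntl, Per2, Per3, Cry1, Cry2 and Nr1d2 of its group. In the uninjured group the highest values of Per1, Per2 and Per3 were in 3 different samples.

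**Figure D5:**
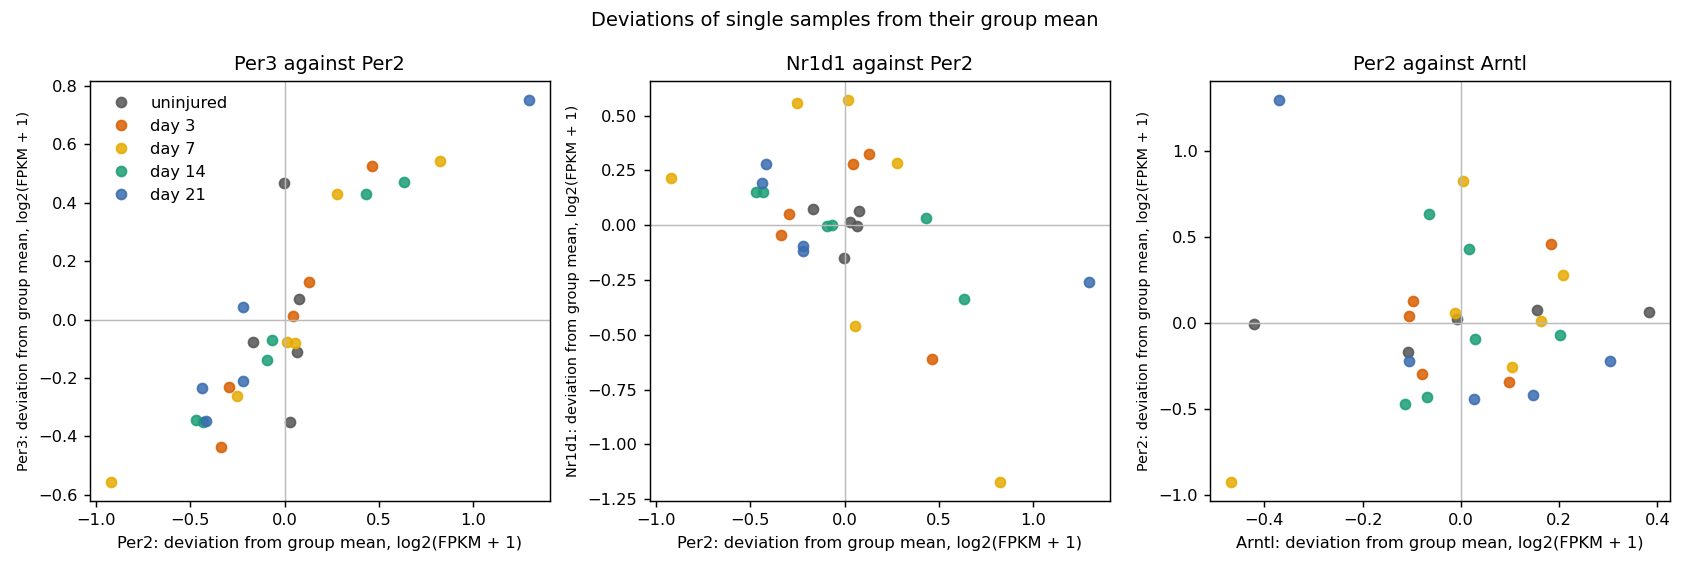
Deviation of each of the 27 samples from its group mean in log2(FPKM + 1), coloured by group, for Per3 against Per2, Nr1d1 against Per2 and Per2 against Arntl. The points rise along a line in the left panel (r 0.89) and fall with wide scatter in the middle panel (r -0.55). They scatter widely in the right panel (r 0.01, and -0.32 without the 2 samples farthest from the median of Arntl).

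The deviations were also set against summed cell markers, in 20 relations. Cry1 had an r of -0.74 to the macrophage sum (permutation p = 0.0003, adjusted p = 0.006), a rho of -0.66 (permutation p = 0.00059), an r of -0.66 without the 2 farthest samples and of -0.51 without the 2 libraries that stood apart. The other 19 had an adjusted p above 0.05. Among them, Per2 had an r of -0.53 (permutation p = 0.0115, adjusted p = 0.0856) and a rho of -0.35 (permutation p = 0.102) to the macrophage sum. This r was -0.27 without the 2 libraries, and -0.20 without the 2 farthest samples. To the same sum Nr1d1 had an r of 0.63 (permutation p = 0.0426, adjusted p = 0.142) and a rho of 0.37. Its r was 0.69 without the 2 libraries and 0.56 without the 2 farthest samples. Nr1d2 had an r of -0.56 (permutation p = 0.0197, adjusted p = 0.0856) and a rho of -0.49 to that sum. Its r was -0.45 without the 2 libraries and -0.40 without the 2 farthest samples.

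Over all 27 samples, group differences included, the genes whose log2(FPKM + 1) was most like that of a member were ranked for 4 members as a description. For Dbp this was Ciart, with an r of 0.83, followed by Coq10b (0.72), Aldh3a1 (0.72), Gm48395 (0.70) and Ighg2c (0.69). The most opposite to Dbp was Fkbp5 (-0.74), followed by Il33 (-0.72), Scd2 (-0.71), AC129539.1 (-0.69) and Fgl2 (-0.67). For Cry2 the order was Tef (0.75), Sh3rf2 (0.74), Hsf4 (0.73), A430010J10Rik (0.70) and Kank1 (0.70), and at the opposite end Srgn (-0.77), Ero1lb (-0.74), Rftn1 (-0.71) and Mad1l1 (-0.70). Per1 was more like Per2 (0.89) and Per3 (0.88) than like any gene outside the members, of which Klf2 came first (0.87), before Efcc1 (0.84), Ccnl1 (0.84), Pald1 (0.84) and Zfp592 (0.82), with Triap1 (-0.82), Lamp1 (-0.82), Rab1a (-0.80), Nubpl (-0.80) and 1110004F10Rik (-0.80) at the opposite end. For Arntl the order was Ndel1 (0.84), Ptpn4 (0.80), Ankrd33b (0.80) and Cnep1r1 (0.79), and at the opposite end Arrdc1 (-0.84), Slc4a3 (-0.79), Tchp (-0.77), Ewsr1 (-0.77) and Agpat4 (-0.76). Clock ranked lower, since 520 genes had a higher r to Arntl than its 0.61. These samples share groups and scaling, so the values are no test.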

How the data were processed

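RNA was measured by poly(A) sequencing with non-directional libraries in 27 samples of 5 groups. Reads were aligned with HISAT2 2.0.5 and counted with featureCounts 1.5.0-p3 per the submitters' processing notes, and the authors deposited FPKM per gene. The FPKM were whole multiples of what 1 read is worth for 100% of values within a tolerance of 0.01, so reads per gene were recovered. Coordinates are those of the deposited table, whose build was checked against GENCODE on GRCm38, where 54495 genes were found and 98.3% had the same coordinates. All per-sample columns were used (0 left out).

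FPKM were taken as log2(FPKM + 1) and fitted with limma 3.58.1 (R 4.3.3, trend, 2-sided, a mean per group over all 27 samples) on the 14630 genes with at least 0.5 FPKM in at least 5 samples, and p-values were adjusted by Benjamini-Hochberg over these genes at a threshold of 0.05. Deviations from group means were correlated with 100000 permutations of samples within groups. Python 3.11.15 with pandas 2.3.3, numpy 2.4.6, scipy 1.17.1 and matplotlib 3.10.9 was used. The fit was tested on simulated data.

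The members and the 4 further lists were chosen with earlier results of these data known. Named genes were all members, of each further list up to 6 called genes with the largest differences, and for Arntl, Dbp, Per1 and Cry2 the 5 genes most and least like them, together with genes overlapping a member, and some genes that this rule names are not reported here, though they count in the lists. Groups came from the labels, which give no batch or date. Alternatives covered pseudocounts, filters, scalings, replicate blocks, a fit of only 2 groups, no trend, and each library left out. Weights from voom and the settings for member pairs were chosen after seeing the data. The authors' comparisons were not used.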

Additional observations from a re-analysis of the deposited data

Results flagged for a closer look

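In each of 50 groups of 1 member at 1 time, the gap of a sample to the nearest other sample was set against the group's range. In 6 groups this passed Dixon's 95% critical value, and chance gives about 1 in 20 independent groups. These groups share libraries, and the Per genes deviated together, so nothing is read from this count. In 3 of the 6 groups the sample was day 21 replicate 5, the highest of its group for Per1 (24.7 FPKM), Per2 (9.68 FPKM) and Per3 (9.19 FPKM). Per1 was also far above its group in day 7 replicate 6 (12.2 FPKM). Cry1 stood high in day 3 replicate 5 (3.93 FPKM), the sample with the low macrophage markers of its group. Nr1d1 stood low in day 14 replicate 5 (24.6 FPKM), which had the highest Per1, Per2 and Per3 of its group.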

How the results depend on the processing

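Depth limits Arntl and, in uninjured muscle, Per2, which rested on few reads. The cause of the changes below was not tested. With FPKM rescaled to a common sum, 11 of the further genes were past the threshold on day 3 and 0 on day 21, 3 members on day 3 and 3 on day 21, 4 of 9 members varied with Arntl and 20 pairs passed. With each sample's own total of reads these were 15 further genes on day 3 and 2 on day 21, 3 members on day 3, and 1 of 9 with Arntl. Quantile normalization gave 2 further genes on day 21 and 7 pairs. Without a filter on low values, 3 members on day 3, 3 on day 21, 7 further genes on day 14 and 0 on day 21 passed. A fit of only the 2 groups gave 12 further genes on day 21 and voom gave 3. Pseudocounts of 0.1 and 0.5 gave 5 and 7 pairs, and 6 passed without both libraries that stood apart.

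Differences that changed sign with FPKM rescaled to a common sum and with the own total of reads, in this order, were on day 3 those of Clock (0.19, 0.055), Tef (0.25, 0.091), Gsk3b (0.20, 0.050), Cipc (0.17, 0.022), Ncor1 (0.15, 0.010) and Hdac3 (0.29, 0.13). On day 7 they were those of Nr1d2 (0.20, 0.026), Gsk3b (0.18, 0.018), Hdac3 (0.28, 0.11) and Sgk1 (0.21, 0.042). The first scaling alone turned Bhlhe40 (0.11), Usp2 (0.15) and Sgk1 (0.14) on day 3, Bhlhe40 (0.010) on day 7, Hdac3 (0.066) on day 14, and the r of Nr1d1 to Per1 (0.083) and Per3 (0.118). Relative to the median of all genes, 0 of the 21 member differences past the threshold and 0 of the 60 further differences changed sign under either scaling, and 1 of the 60 did under quantile normalization. Either scaling multiplies all genes of a sample by the same factor, which taking off the median largely undoes, so these counts of 0 are no check.

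With 1 library left out, members past the threshold numbered 3 to 5 on day 3, 3 to 5 on day 7, 6 to 6 on day 14, 4 to 7 on day 21, 5 to 8 from day 3 to 14 and 0 to 0 from day 14 to 21. Further genes numbered 23 to 26 on day 3, 14 to 19 on day 7, 6 to 16 on day 14 and 1 to 8 on day 21, pairs 4 to 11, and 0 to 0 of 9 members varied with Arntl. The median percentile of the spread was 48.9 to 63.0.

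Whether the replicate numbers pair samples is not known. Same-numbered samples correlated from -0.52 to 0.57 in their deviations, and 15 of 51 such pairs were over 0.1. Differently numbered samples correlated from -0.49 to 0.61, with 55 of 240 pairs over 0.1. Such correlations cannot show whether samples share an animal. With the number as a block, members past the threshold were 5, 3, 6 and 7 and further genes 26, 18, 14 and 8 at days 3, 7, 14 and 21, and members were 7 from day 3 to 14 and 0 from day 14 to 21. With the letter of the descriptions as a block, members were 5, 3, 6 and 6 and further genes 27, 17, 14 and 10. The settings for voom and for the pairs were chosen after seeing the data.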

Other observations

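On deviations from group means over the 27 samples, which leave out the differences between groups, the genes most like Per1 were Slc25a25 (r 0.89), Tns2 (0.88), Klf2 (0.88), Ptk2 (0.86) and Efcc1 (0.82), and the least like it Dnttip2 (-0.82), Cct2 (-0.81), Plaa (-0.81), Swsap1 (-0.81) and Gm6136 (-0.79). Klf2, which encodes a transcription factor of endothelium and immune cells, and Efcc1 were thus among the first for Per1 with and without the group differences. For Dbp the first were Slc40a1, the iron exporter (0.79), Oxsr1 (0.74), Ykt6 (0.73), Txnrd1 (0.73) and Rapsn (0.73), and the last Sema3g (-0.81), Mapk8ip1 (-0.78), A230050P20Rik (-0.78), Rasl12 (-0.77) and Mgll (-0.76), so that Ciart was no longer among them.

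For Arntl the first were Mettl15 (0.70), Etv5 (0.65), Cdh13 (0.64) and Cnep1r1 (0.63), and the last Lpcat1 (-0.74), Praf2 (-0.73), Rnf40 (-0.71), Tab1 (-0.70) and Pip4p1 (-0.69). For Cry2 the first were Cdip1 (0.79), Arhgap5 (0.74), Ipo13 (0.73), Rora (0.73) and Tlk2 (0.73), and the last Lbhd1 (-0.84), Cd47 (-0.81), Rpl13-ps6 (-0.77), Lfng (-0.77) and B2m (-0.76). These values describe the 27 samples, which share their scaling, and were not tested.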
